A study of Mus musculus with 12 samples.

Results

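Small nucleolar RNA (snoRNA) genes were examined as sites of crosslinking to Puf60 and Rbm38 in mouse neuroblastoma cells. A cluster, a short genomic interval with a deposited comparison of CLIP and input reads, was taken as a member when its centre lay in a RefSeq gene of biotype snoRNA on mm10 (GRCm38.p6). This rule used position alone and found 754 of 124941 clusters: 243 of 36227 for Puf60 with exon 5, 249 of 39454 for Puf60 without exon 5 and 262 of 49260 for Rbm38. Symbols starting Snord were counted as C/D box genes, symbols starting Snora as H/ACA box genes, and the remaining genes, nearly all with provisional Gm or LOC symbols, as genes of other symbol. None of the 9 Scarna genes, which encode Cajal body RNAs, has the biotype snoRNA in this annotation, so that class held 0 members and is described separately.

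The study used iCLIP, in which ultraviolet light fixes a protein to the RNA it touches and the RNA is recovered with the protein and sequenced. N2A is a mouse neuroblastoma line, and each of its derivatives here carried a Flp-in, doxycycline-controlled Flag-tagged protein: Puf60 including exon 5, Puf60 lacking exon 5, or Rbm38. Every line received 1 µg/ml doxycycline and 150 mJ/cm2 of ultraviolet light, and each protein had 3 CLIP libraries made with the anti-Flag M2 antibody and 1 size-matched input, which is lysate RNA run on the same gel without the antibody. Induction lasted 48 h for the CLIP libraries of Puf60 with exon 5 and 24 h for all other libraries, that line's own input included, so isoform and induction time cannot be told apart. The proteins were expressed from an inserted transgene, so the values describe the tagged proteins and not the cells' own Puf60 or Rbm38. Of 8 neuroblastoma marker genes, 5, 4 and 4 held a cluster in the tables for Puf60 with exon 5, Puf60 without exon 5 and Rbm38, and the tables hold no expression levels with which to check the line further.

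Puf60 is a splicing factor that binds pyrimidine-rich tracts near the end of introns, and Rbm38 is an RNA-binding protein known for control of splicing and messenger RNA stability. C/D box snoRNAs assemble with fibrillarin, Nop56, Nop58 and Snu13 and guide ribose methylation of ribosomal RNA, whereas H/ACA box snoRNAs assemble with dyskerin, Gar1, Nhp2 and Nop10 and guide its pseudouridylation. A few members of each class instead act in cleavage of the ribosomal RNA precursor. Most vertebrate snoRNAs lie in introns of host genes and are released from the spliced intron, so a cluster on a snoRNA can hold reads of the mature snoRNA or of the intron around it.

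The letters that set the classes apart are shown for a pair of members of which RefSeq miRNA hairpins of GRCm38.p6 hold a stretch. The first is the 5′ end of the C/D box gene Snord33, positions 1 to 28 of 82 on the minus strand at chr7:45126918-45126945, inside the ribosomal protein gene Rpl13a, with box C (UGAUGA) in capitals from position 7. The second is the 3′ end of the H/ACA box gene Snora36b, positions 50 to 113 of 113 on the plus strand at chr1:185242975-185243038, inside Rab3gap2, with box ACA in capitals at position 108, 3 bases before the end.
Snord33: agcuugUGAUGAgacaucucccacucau
Snora36b: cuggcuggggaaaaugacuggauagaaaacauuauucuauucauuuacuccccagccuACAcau
TGATGA occurred in 0.603% of 32851 RefSeq windows that cover the first 28 bases of a gene on the given strand, and in 1.1% on either strand. ACA stood 3 bases before the end of 1.17% of 64-base RefSeq windows on the given strand and was so placed on either strand in 2.73%. These matches describe the printed letters and are not evidence of binding by any factor. In the authors' deposited tables Snord33 stood at a log2 fold of -1.67 for Puf60 with exon 5 and -1.42 without it, and had no member cluster for Rbm38. In both Puf60 tables the cluster was 400 nt wide, with 318 nt of it outside the gene, so its value is not that of the snoRNA alone. Snora36b stood at -2.47, -3.21 and -3.46 in the authors' deposited tables for Puf60 with exon 5, Puf60 without exon 5 and Rbm38. The clusters assigned to both genes were thus below input wherever they were listed.

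Values below are the authors' log2 fold, read as CLIP over size-matched input, so a value below 0 is lower in CLIP than in input on the authors' normalization, which is not described in the sources used here. Enriched means a deposited adjusted p under 0.05, and below input means that 1 minus the deposited p, adjusted by Benjamini-Hochberg over the whole table, is under 0.05. The deposited p-value behaves as one-sided towards enrichment, which is why the opposite tail was adjusted separately. Values of single libraries are not in the tables, so how far the 3 CLIP libraries of a protein differ is unknown, and while the sample titles number them BR1 to BR3, the labels do not say whether these were separate cultures. Clusters are not replicates of a condition, and the Wilson intervals below cover counting of clusters only.

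Nearly all snoRNA clusters were below input for all 3 proteins. For Puf60 with exon 5, 235 of 243 were below input (96.7%, 95% Wilson interval 93.6% to 98.3%), against 26.2% of all clusters in that table. For Puf60 without exon 5, 242 of 249 were below input (97.2%, interval 94.3% to 98.6%), against 27.8% of all clusters. For Rbm38, 261 of 262 were below input (99.6%, interval 97.9% to 99.9%), against 11.2% of all clusters. Enrichment was correspondingly rare: 4 of 243 clusters (1.65%) with exon 5, where 39.1% of all clusters were enriched, 3 of 249 (1.2%) without exon 5, where 36.1% were, and 0 of 262 for Rbm38, where 50.9% were.

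The median log2 fold over snoRNA clusters was -2.75 for Puf60 with exon 5, -2.90 without exon 5 and -3.19 for Rbm38. On a linear scale the median member was 6.74, 7.46 and 9.11 times lower in CLIP than in input for Puf60 with exon 5, Puf60 without it and Rbm38. The medians over all clusters were 0.24, 0.11 and 1.04, so the members sat near the bottom of each table. Of the lowest 1% of clusters, 148 of 362 (40.9%), 149 of 394 (37.8%) and 197 of 492 (40.0%) lay in snoRNA genes, which hold 0.671%, 0.631% and 0.532% of all clusters. The plot of log2 fold by class shows these values beside the middle of each table.

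**Figure D1:**
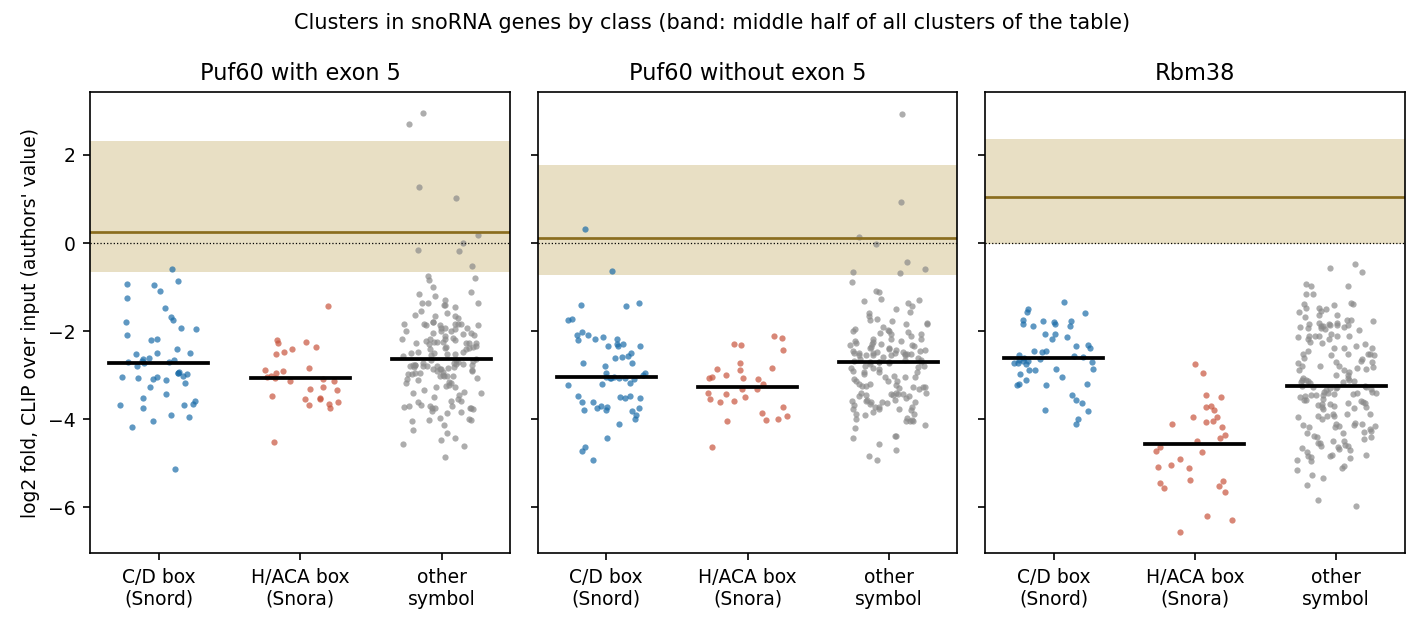
Each point is a cluster in a snoRNA gene, by class (x axis) and its log2 fold of CLIP over input (y axis), with a black bar at the class median; the band spans the quartiles of all clusters of that table and the brown line marks their median. In the Rbm38 panel the H/ACA box median of -4.56 lies below every C/D box cluster, of which the lowest is at -4.10.

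Other classes of short structured RNA genes were less uniform in the share below input. Clusters in tRNA genes had medians of -0.78, -1.88 and -0.47, and 59.7%, 91.5% and 50.6% of them were below input. Clusters in genes of biotype snRNA had medians of -0.42, -0.76 and -1.10. Of these, 90 of 180, 119 of 187 and 100 of 129 were below input. This biotype holds RNAs of the spliceosome and also the listed U3 genes described below. Enriched clusters made up 25.1%, 1.21% and 25.3% of those in tRNA genes and 6.67%, 7.49% and 2.33% of those in snRNA genes. Rare enrichment was thus shared with tRNA genes for Puf60 without exon 5, and nearly so with snRNA genes for Rbm38. In each table the snoRNA median was lower than that of tRNA and of snRNA genes, and no test was made of these differences.

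Most listed snoRNA genes were listed in more than 1 table. In all, 287 of 1340 snoRNA genes (21.4%) held a cluster in at least 1 table and 219 of them in all 3, of which 45 were C/D box, 30 H/ACA box and 144 of other symbol. By class, 64 of 93 C/D box genes, 32 of 39 H/ACA box genes and 191 of 1208 genes of other symbol were listed. The 229 genes listed for both Puf60 isoforms made up 94.6% of the list with exon 5 and 92.0% of that without. Rbm38 shared 226 genes with Puf60 with exon 5 (93.4% of the Puf60 genes and 86.3% of the Rbm38 genes) and 230 with Puf60 without exon 5 (92.4% and 87.8%). Over all 49993 genes, 24.2% held a cluster centre in at least 1 table and 52.2% of those did in all 3, against 76.3% of the listed snoRNA genes. The shares over all genes were 86.4% and 84.0% between the isoforms, and 79.2% and 71.6%, and 79.2% and 73.7%, between Rbm38 and Puf60 with and without exon 5. Between the isoforms, tRNA genes shared 98.3% and 91.9% and snRNA genes 91.0% and 89.0%, so high sharing there was not particular to snoRNA genes. Of listed tRNA and snRNA genes, 61.3% and 54.7% were listed in all 3 tables, fewer than for snoRNA genes. No test was made of these differences. A listed gene is therefore not an enriched gene here, since nearly every listed snoRNA cluster lay below input.

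The H/ACA box genes differed from the C/D box genes mainly in the Rbm38 table. There the H/ACA median was -4.56 over 32 clusters and the C/D median -2.62 over 52, a difference of -1.94. All 32 H/ACA clusters lay below the C/D median, 20 of them below the lowest C/D cluster, and 33 of 52 C/D clusters lay above the highest H/ACA cluster at -2.74. In the Puf60 tables the classes overlapped: the medians were -3.07 for H/ACA and -2.72 for C/D with exon 5, and -3.26 and -3.04 without it. No H/ACA cluster lay below the lowest C/D cluster in either Puf60 table, and 22 of 30 and 20 of 30 lay below the C/D median.

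The same genes compared across tables gave the same picture. Over the 30 H/ACA genes listed for both, Rbm38 minus Puf60 with exon 5 had a median of -1.31 and was below 0 in 30 of 30. Over 45 C/D box genes the median was 0.03, with 22 below 0. Against Puf60 without exon 5, which was induced for 24 h as Rbm38 was, the H/ACA median was -1.08, with 29 of 30 below 0, and the C/D median 0.29, with 18 of 49 below 0. These comparisons share the Rbm38 libraries, and each protein has its own input from its own line, so a difference between tables can come from CLIP or from input and these cannot be told apart.

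**Figure D2:**
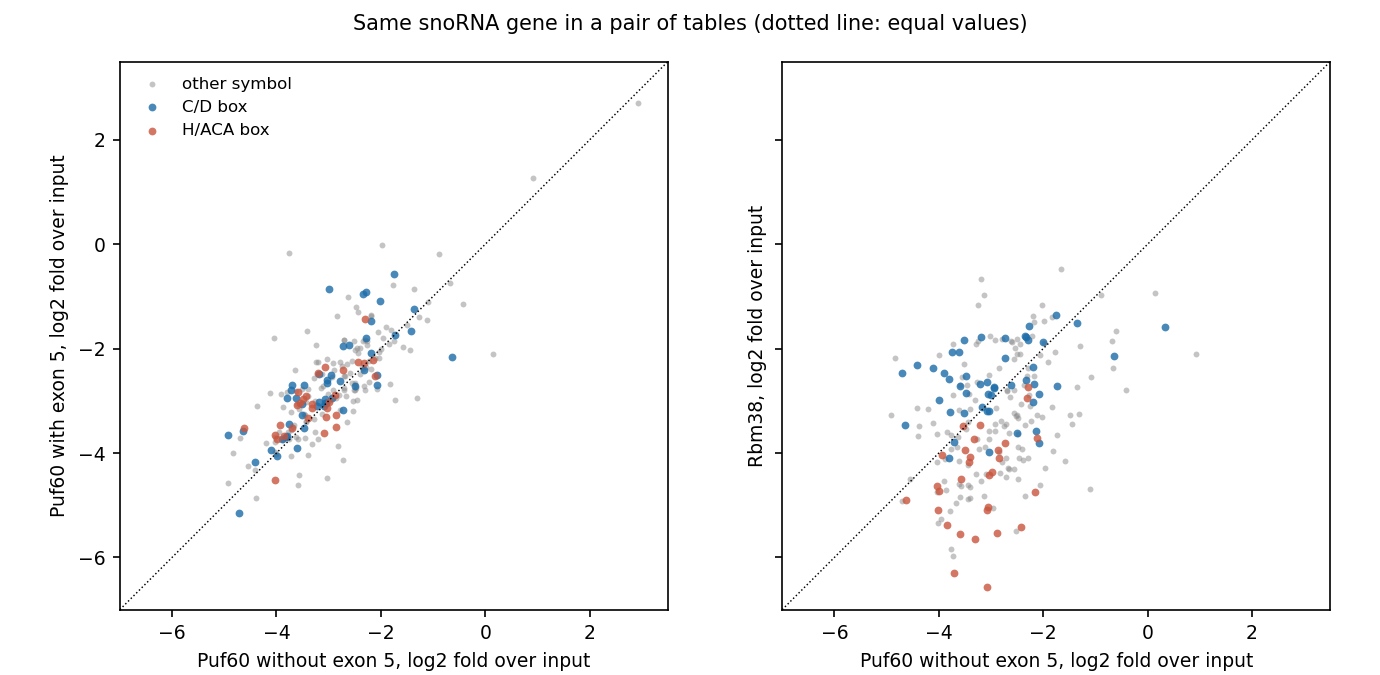
Each point is a snoRNA gene placed by its log2 fold over input for Puf60 without exon 5 (x axis) and for Puf60 with exon 5 or Rbm38 (y axis), coloured by class. The points follow the dotted line of equal values for the isoforms, while 29 of 30 H/ACA box genes lie below it for Rbm38.

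Across the 219 genes listed in all 3 tables, the log2 folds of the isoforms had a Pearson r of 0.736 (Spearman rho 0.756). The r of Rbm38 was 0.353 with Puf60 with exon 5 and 0.328 without it. These correlations are across genes, which are not independent replicates, and each table shares its libraries over all its genes.

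Among H/ACA box genes, Snora73a, a copy of the U17 RNA that acts in cleavage of the ribosomal RNA precursor, was the lowest member of the Rbm38 table. It stood at -3.61, -3.08 and -6.56 in the authors' deposited tables for Puf60 with exon 5, Puf60 without exon 5 and Rbm38. Its neighbour Snora73b in the same host, Snhg3, was listed only for Rbm38, at -6.20 in the authors' deposited table. The copies are near-identical, and how reads that fit several places were counted is not given in the sources used here, so the split between them is uncertain. Snora81, in the gene of the translation factor Eif4a2, stood at -3.53, -3.71 and -6.29 in the authors' deposited tables. At Snora73a and Snora81 the Rbm38 value was thus the lowest of the values in the 3 tables. The Snora73a clusters were 450 nt wide with exon 5 and 350 nt without it, around a gene of 205 nt. No H/ACA cluster for Rbm38 was wider than 250 nt, so the Snora73a values are from unequal intervals and the Puf60 values are not those of the snoRNA alone.

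Further H/ACA genes in ribosomal protein genes followed the same order. Snora3 in Rpl27a stood at -3.13, -3.31 and -5.65 in the authors' deposited tables for Puf60 with exon 5, Puf60 without it and Rbm38. Snora7a in Rpl32 stood at -2.89, -2.88 and -5.53, and Snora64 in Rps2 at -2.26, -2.43 and -5.41, also in the authors' deposited tables. Other H/ACA genes of ribosomal protein hosts had smaller steps from Puf60 without exon 5 to Rbm38 in the authors' deposited tables. Snora69 in Rpl39 stood at -4.03 and -4.63, Snora52 in Rplp2 at -2.32 and -2.94, and Snora65 in Rpl12 at -3.40 and -4.07. Snora21 in Rpl23 stood at -3.43 and -4.18, and Snora70 in Rpl10 at -2.99 and -4.36. The smallest gaps were at Snora23 in Ipo7, the only H/ACA gene not lower for Rbm38 than for Puf60 without exon 5 (-3.54 against -3.49 in the authors' deposited tables), and at Snora41 in Eef1b2 (-3.93 and -4.04). Snora17 in the long noncoding host Snhg7 was the lowest H/ACA gene for Puf60 with exon 5, at -4.51, and Snora28 in Eif5 the lowest without it, at -4.62, in the authors' deposited tables. Snora43, the other listed snoRNA named in Snhg7, was the highest H/ACA gene for Rbm38 and for Puf60 with exon 5, at -2.74 and -1.43 in the authors' deposited tables.

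C/D box genes did not share a single order. Snord118, the U8 RNA that acts in maturation of the large-subunit ribosomal RNAs and is transcribed from its own promoter, stood at -4.17 and -4.42 in the authors' deposited tables for Puf60 with and without exon 5, and at -2.32 for Rbm38. Snord13, the U13 RNA, which also has no host here, stood at -3.94, -4.11 and -2.38 in the authors' deposited tables. Snord45b in Rabggtb was the lowest member of any class for Puf60 with exon 5, at -5.14, and stood at -4.71 without it and -2.46 for Rbm38 in the authors' deposited tables. These 3 genes thus ran opposite to the H/ACA genes, with the Rbm38 value the nearest to input. In the other direction, Snord45c of the same host stood at -2.60, -3.04 and -3.98, and Snord8 at -2.69, -2.08 and -3.81, in the authors' deposited tables.

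The U14 copies Snord14a in Rps13 and Snord14e in Hspa8 encode an RNA that takes part in both methylation and cleavage. The values of these copies lay close together for Puf60 with exon 5 and for Rbm38, but not for Puf60 without exon 5. Snord14e stood at -3.04, -3.07 and -3.20 in the authors' deposited tables, and Snord14a at -2.94, -3.79 and -3.22. Snord14c and Snord14d, also in Hspa8, are near-identical to Snord14e, so their reads may be shared. Snord14c stood at -2.96 with exon 5 and -3.07 without it in the authors' deposited tables, and was not listed for Rbm38. Snord14d stood at -2.21 in the authors' deposited table for Puf60 with exon 5 and was not listed in the others. Snord118, Snord13, Snord22, the Snord14 copies and both Snora73 genes were grouped here under cleavage of the ribosomal RNA precursor. This role is not equally established for each. Of these 9 genes, 7 were listed in each table. Their medians were -3.04, -3.08 and -3.22, against -2.75, -2.90 and -3.19 over all snoRNA clusters.

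A host that carries both classes allows them to be compared on the same transcript. These hosts were singled out after their values were seen. In Ncl, which encodes nucleolin, the C/D box gene Snord82 stood at -3.02, -3.19 and -1.77 in the authors' deposited tables for Puf60 with exon 5, Puf60 without it and Rbm38. Snora75 of the same host stood at -2.36, -3.07 and -5.09 in the authors' deposited tables. H/ACA minus C/D was therefore -3.32 for Rbm38 and above 0 for both Puf60 isoforms, at 0.66 and 0.12. A further host in the Puf60 tables, Snhg12, had Snord99 at -3.06 and Snora16a at -3.85 without exon 5 in the authors' deposited table, a difference of -0.79, so the Puf60 hosts did not share a direction. In Eif4a2, Snord2 stood at -2.45 and Snora81 at -6.29 in the authors' deposited table for Rbm38, and in Rps12, Snord100 stood at -2.67 and Snora33 at -5.45. In all 3 such hosts of the Rbm38 table the H/ACA gene was the lower.

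H/ACA box genes are longer than most C/D box genes, so length moved with class. Genes of other symbol, whose class the symbol does not give, had their lowest median for Rbm38 at intermediate length: -3.68 for the 94 clusters in genes of 120 to 140 nt, against -2.48 for the 56 in genes of at most 100 nt and -2.69 for the 25 in genes of over 140 nt. The values did not rise or fall with length throughout, and the bins overlapped widely, from -5.50 to -1.41 at 120 to 140 nt and from -5.84 to -0.47 at up to 100 nt. For Puf60 the same bins differed little, with -2.74 and -2.53 with exon 5 and -2.81 and -2.67 without it. The few long C/D box clusters for Rbm38 had medians of -2.53 (3 of 120 to 140 nt) and -2.98 (3 of over 140 nt), while the 12 H/ACA clusters in genes longer than 100 and shorter than 120 nt had a median of -4.28. Length and class were not separated by a test.

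**Figure D3:**
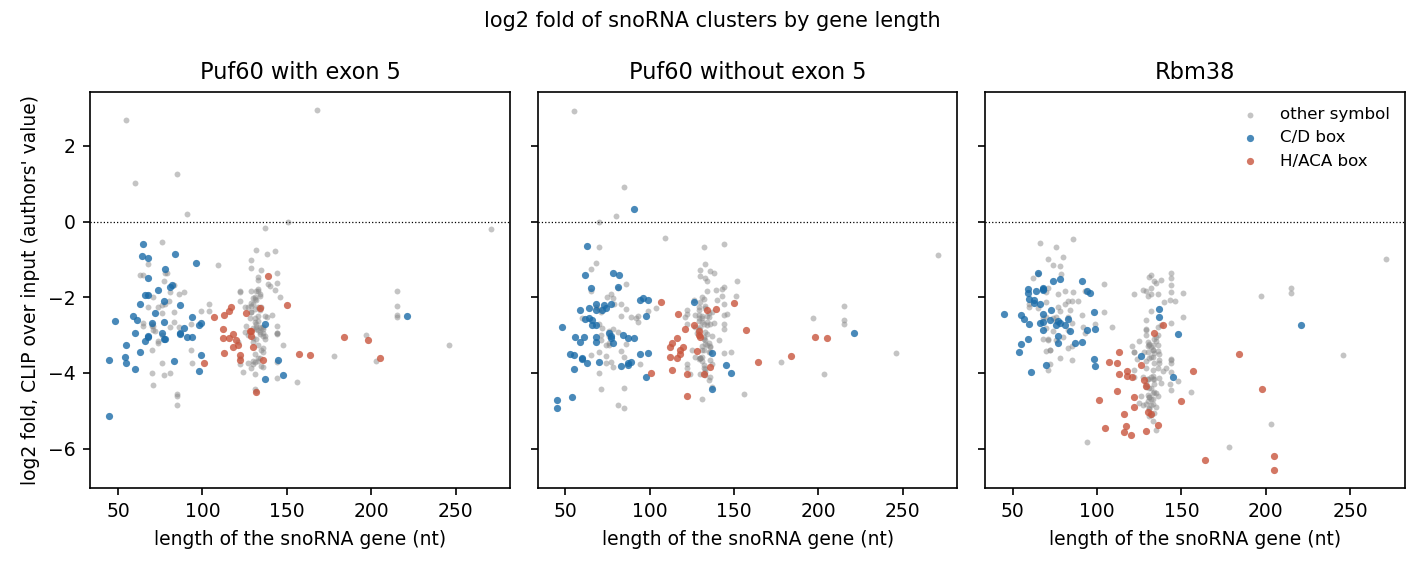
Each point is a snoRNA cluster placed by the length of its gene in nt (x axis) and its log2 fold of CLIP over input (y axis), 1 panel per protein. For Rbm38 the genes of other symbol between 120 and 140 nt have a median of -3.68 and those of at most 100 nt a median of -2.48, with overlapping ranges; for Puf60 the medians of these bins are close.

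The few clusters above input sat mostly in genes with provisional symbols inside housekeeping hosts. Genes of other symbol also held most members of any value, 162 of 243 with exon 5 and 159 of 249 without it. The symbols thus do not set these few clusters apart. LOC115488570, at chr15:80081032-80081086 in the ribosomal protein gene Rpl3, stood at 2.70 with exon 5 and 2.92 without it in the authors' deposited tables, and was not listed for Rbm38. Its cluster ran from 80081036 to 80081135 for both isoforms, well past the end of the gene, so its value is not that of the snoRNA alone. LOC115487308, at chr9:20889484-20889568 in Ppan, a ribosome biogenesis gene, stood at 1.27, 0.92 and -2.11 in the authors' deposited tables for Puf60 with exon 5, Puf60 without it and Rbm38. LOC115486847, at chr7:111076060-111076227 in the translation factor gene Eif4g2, stood at 2.95 in the authors' deposited table for Puf60 with exon 5 and was not listed in the others. The host Eif4g2 had 20 of 28 other clusters enriched there. LOC115487644 in Gas5, a long noncoding host of many C/D box RNAs, stood at 1.03 in the authors' deposited table for Puf60 with exon 5, in a cluster that reached 290 nt beyond the gene, and at -2.26 for Rbm38 in a cluster that reached 40 nt beyond it.

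Snord16a in Rpl4 was the only named gene with an enriched cluster. It stood at 0.33 in the authors' deposited table for Puf60 without exon 5, in a cluster of 650 nt of which 559 nt lay outside the gene. For Rbm38 a cluster of 100 nt on the same gene stood at -1.58 in the authors' deposited table. Wide clusters were uncommon: the median member was 100 nt wide in each table, and 15, 20 and 7 clusters reached over 100 nt beyond the gene. The median member covered 90.7%, 90.7% and 88.1% of its gene, and 86, 92 and 81 covered the whole gene. Clusters that overlapped a snoRNA gene but had their centre outside it, 51, 52 and 49 in number, had medians of -1.93, -1.98 and -2.14, and 4, 7 and 2 of them were enriched.

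The Puf60 isoforms differed little at snoRNA genes. Over 225 matched pairs of clusters, the log2 fold with exon 5 minus that without it had a median of 0.17 (SD 0.655 across pairs), and 63.1% of pairs were above 0. Over all 20187 matched pairs in the tables the median was 0.10 (SD 0.706), and 56.4% were above 0, so the shift at snoRNA genes was near that of the tables. Medians were 0.17 for C/D box pairs, of which 36 of 48 were above 0, and 0.18 for H/ACA box pairs, of which 20 of 30 were. A difference wider than 1 was found at 27 of the 225 snoRNA pairs, against 3091 of all 20187 matched pairs. Wide differences were thus no more common at snoRNA genes than over the tables.

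The widest named pair was Snord88c, at -0.86 with exon 5 and -3.00 without it in the authors' deposited tables, where the cluster with exon 5 was the longer. Gm24706 stood at -0.17 with and -3.76 without exon 5, and Gm22711 at -1.79 and -4.04, in the authors' deposited tables. The opposite sign was widest at LOC115487312 in Ppan, at -2.10 with and 0.15 without exon 5, and at Gm22581 in Polr3c, at -2.95 and -1.31, in the authors' deposited tables. With no values per library, none of these differences has a replicate check. The clusters of Gm24706, Gm22711 and LOC115487312 also differed in extent between the isoforms, while those of Gm22581 were the same. Over all 225 snoRNA pairs, 180 had the same extent.

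Of the 287 listed genes, 246 lay within a protein-coding gene (199) or a long noncoding RNA gene (47) on the same or an unknown strand, 161 hosts in all. Ribosomal protein genes made up 28 of the hosts and held 53 of the snoRNA genes. The snoRNA clusters were lower than the host's other clusters in 114 of 117 hosts for Puf60 with exon 5, and in 115 of 115 both for Puf60 without it and for Rbm38. The median of snoRNA minus other clusters per host was -3.42, -3.40 and -4.32. The other clusters of these hosts were enriched in 498 of 1013 (49.2%), 461 of 1025 (45.0%) and 431 of 935 cases (46.1%), against 39.1%, 36.1% and 50.9% of all clusters. The same hosts thus held clusters above input outside their snoRNAs. The other clusters of a host were not always all that it held beside its members, as the counts for Nop56 below show. There the clusters left out for both Puf60 isoforms were below input. In Nop58 with exon 5, 5 other clusters were counted against 8 over the whole gene without its members. The contrast within hosts may thus be overstated where low clusters were left out.

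Nop56 shows the contrast within 1 transcript: it encodes a core protein of C/D box snoRNA particles and itself carries snoRNAs. With exon 5 its 3 snoRNA clusters had a median of -3.44, while 13 of 13 other clusters were enriched with a median of 2.23. Without exon 5 its 4 snoRNA clusters had a median of -2.42 and 10 of 10 other clusters were enriched, with a median of 2.61. The snoRNA medians are over partly different genes. Snord110 and Snord57, listed for both isoforms, were lower without exon 5, at -3.18 and -3.75 against -2.49 and -3.44 in the authors' deposited tables. For Rbm38 the snoRNA median was -1.96, and only 1 of 13 other clusters was enriched. Ddx39b, which encodes a splicing helicase, was alike, with snoRNA medians of -3.89, -3.46 and -1.29 and 18 of 23, 23 of 26 and 8 of 22 other clusters enriched. In Srcap, a chromatin remodeller gene, Snora30 stood at -2.52, -2.12 and -3.71 in the authors' deposited tables, beside 16 of 22, 13 of 17 and 1 of 13 other clusters enriched. The other clusters above were not all that Nop56 held beside its members. Counted over the whole gene without its members, Nop56 held 15 clusters with exon 5, of which 13 were enriched and 2 below input. Without exon 5 it held 11, of which 10 were enriched and 1 was below input. For Rbm38 it held 14, of which 1 was enriched and 5 were below input, the lowest at -5.01.

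The median host cluster close to a snoRNA was above input, though many single clusters were not enriched. Within 500 nt of a snoRNA's centre, and not on the snoRNA, 127 of 211 host clusters (60.2%) were enriched with exon 5, 111 of 199 (55.8%) without it and 61 of 157 (38.9%) for Rbm38, with medians of 1.06, 0.82 and 0.38. From 500 to 1000 nt the shares were 38.5%, 37.3% and 37.1%. On the downstream side within 250 nt, 43 of 62, 39 of 60 and 21 of 48 clusters were enriched, and on the upstream side 21 of 41, 21 of 37 and 10 of 31. For Puf60 the near share was thus above the farther share, the table's background and the 49.2% and 45.0% of all other host clusters, whereas for Rbm38 it was below the table's 50.9%. Neighbouring clusters share a transcript, and no test was made of this difference.

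**Figure D4:**
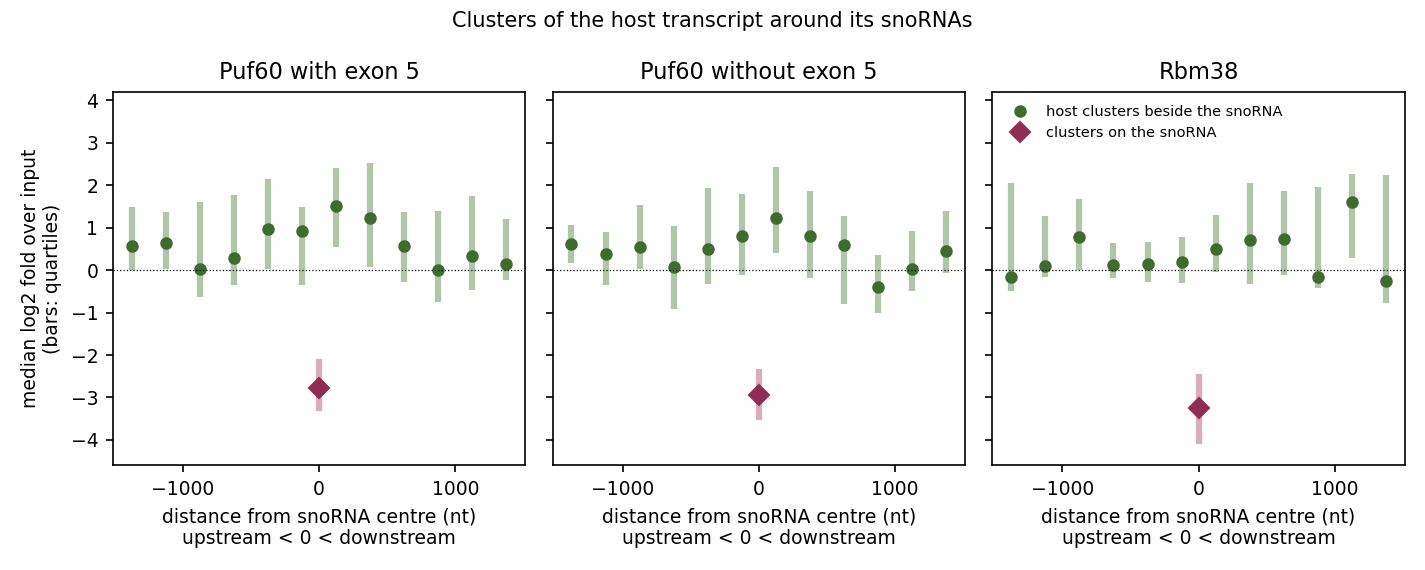
Green points give the median log2 fold of host clusters in 250-nt steps by distance from the snoRNA centre (x axis, nt along the strand inferred for the snoRNA cluster), and the red diamond that of clusters on the snoRNA; bars are quartiles. On the downstream side the first step has medians of 1.52, 1.23 and 0.50 for Puf60 with exon 5, Puf60 without it and Rbm38, and the clusters on the snoRNAs of these hosts have medians of -2.78, -2.95 and -3.24.

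The low values were not limited to hosted snoRNAs. Snord118, Snord13 and Snord89, the C/D box genes without a host, had medians of -3.94, -4.11 and -2.32, and genes of other symbol without a host had -2.39, -2.59 and -2.62.

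The imprinted snoRNA arrays held almost no snoRNA clusters. The interval from Ube3a to Snrpn on chromosome 7 holds 206 snoRNA genes, 17 of them copies of Snord116, and none was listed, although 17, 36 and 51 clusters of any kind lay in the interval. From Meg3 to Mirg on chromosome 12, 1 of 19 snoRNA genes was listed, Gm23736, at -1.99 in the authors' deposited table for Puf60 without exon 5. These loci were chosen for what is known of them and not by the naming rule, and a gene with no cluster is not shown to be silent, since the tables list only intervals that passed an unstated selection.

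Related RNAs outside the snoRNA biotype were also mostly below input. Of the 9 Scarna genes, which guide modification of spliceosomal snRNAs in Cajal bodies, 6, 6 and 5 were listed, with medians of -0.80, -1.90 and -3.05 and no enriched cluster. Scarna6 had clusters at 0.30 and 0.55 in the authors' deposited table for Puf60 with exon 5, at -1.53 for Puf60 without it and at -2.00 for Rbm38. Scarna8 stood at -1.15, -1.90 and -3.63 and Scarna3a at -1.42, -2.57 and -3.05 in the authors' deposited tables, with Rbm38 the lowest at both. Scarna3b stood at -0.93, -2.57 and -2.50 in the authors' deposited tables, where Rbm38 was not the lowest. Scarna13 had clusters at -1.53 and -0.66, at -1.91 and -0.41, and at -3.20 in the authors' deposited tables, and Scarna17 stood at -0.46 and -0.99 for Puf60 and was not listed for Rbm38. U3 genes, which act in the first cleavages of the ribosomal RNA precursor, had medians of -1.84, -2.85 and -1.14, and the telomerase RNA Terc, which carries an H/ACA domain, had -1.25, -2.42 and -0.05. The listed U3 genes have the biotype snRNA here and are part of the snRNA class above.

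Genes for snoRNA particle proteins and assembly factors differed from the snoRNAs themselves. Of 25 such genes found, 14, 12 and 16 held a cluster, and 9, 7 and 16 held an enriched one. The share of all genes with an enriched cluster is not given here. The tables hold 36227, 39454 and 49260 clusters, with the highest enriched share for Rbm38, so these gene counts cannot be compared between proteins. Enriched clusters made up 35 of 70, 34 of 70 and 34 of 66 (51.5%), against 39.1%, 36.1% and 50.9% of all clusters, so the Rbm38 share was near its background. Fbl, which encodes fibrillarin, had 5 of 5 clusters enriched for Rbm38, the highest at 6.11 in the authors' deposited table, against 1 of 3 with exon 5 and 1 of 2 without it. Dkc1, which encodes dyskerin, had 2 of 2 clusters enriched for Rbm38 and 2 of 3 for Puf60 with exon 5, and no cluster without exon 5. Most enriched clusters of this list for Puf60 lay in Nop56 and Ncl, which are themselves snoRNA hosts.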

How the data were processed

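Each protein has 1 deposited table, which lists intervals by chromosome and position with the authors' log2 fold change, p-value and adjusted p-value, per the file headers. The log2 fold was taken as CLIP relative to size-matched input, which the header does not state. The submitters' processing notes name TopHat, edgeR, NCBIM37 and mm10, with no role or version. Not given in the sources used here are the cluster caller, the way replicates and input were combined, the treatment of multiply mapping reads and any collapsing by random bases. The tables hold comparisons and 0 further columns of values, so the planned count tests per library were not made, and depth per library is unknown.

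Starts were converted to 1-based positions. The remainder of a start after division by 50 nt is 0 or 35, read as plus and minus strand; 92.7%, 92.9% and 93.6% of enriched clusters in a single gene of known strand had that gene's strand in RefSeq GRCm38.p6. The RefSeq table gives no strand for snoRNA genes, so members were assigned on either strand, upstream and downstream follow the inferred strand of the cluster, and a host was the smallest protein-coding or long noncoding gene around the snoRNA on the same or an unknown strand. No exon positions were used, so intron and exon are not told apart. Isoform pairs were clusters with the largest mutual overlap of at least 1 nt. Counts, medians and 95% Wilson intervals were computed in Python 3.11.15 with pandas 2.3.3, numpy 2.4.6, scipy 1.17.1 and matplotlib 3.10.9, and the steps were tested on simulated data.

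Genes were named by rule: per class and table up to 5 highest enriched and 3 lowest, genes listed in all 3 tables, Scarna genes and the 5 widest isoform pairs in each direction; others are marked where they appear or come from a list. The members and lists were chosen with earlier results of these data known. Printed sequences are RefSeq miRNA hairpins that overlap snoRNA genes, and the base composition given for Snora57 comes from a RefSeq promoter window that overlaps it.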

Additional observations from a re-analysis of the deposited data

How the results depend on the processing

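No paired analysis was possible because the tables hold comparisons only, with no values per library; for the same reason no library could be left out. The strand alternative could not be run as planned, since no strand is given for snoRNA genes; clusters on the known strand of a host were used instead, an alternative chosen after seeing the data, as were all those for the count below input and for the difference of H/ACA and C/D medians. Counts of enriched snoRNA clusters, 4, 3 and 0 for Puf60 with exon 5, Puf60 without it and Rbm38, became 8, 10 and 2 with any overlap of 1 nt, which adds clusters beside the gene. In named genes they were 0, 1 and 0. A log2 fold above 1 left 1 of 3 without exon 5, and the known host strand left 2 of 4 with exon 5. Medians over named genes, also chosen after seeing the data, were -2.95 with exon 5, -3.06 without it and -3.07 for Rbm38, against -2.75, -2.90 and -3.19, so Rbm38 and Puf60 without exon 5 were then nearly equal. By enriched clusters, 0 genes were shared between Rbm38 and either isoform. Below-input counts, and H/ACA minus C/D differences (-1.78 to -1.96 for Rbm38), kept their direction in every alternative run, and none of the results run reversed. Read numbers per cluster are not given, so how depth limits single values is unknown.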

Other observations

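H/ACA box genes differed in the size of the step between Puf60 and Rbm38. Snora34 and Snora2b both lie in Kansl2 and stood at -2.96 and -3.07 with exon 5, -3.50 and -3.32 without it, and -3.95 and -3.73 for Rbm38 in the authors' deposited tables. Snora57 stood at -2.21, -2.16 and -4.74 in the authors' deposited tables, one of the wider steps between Puf60 and Rbm38. Its first 53 of 150 nt, on the minus strand at chr19:8888633-8888685 of GRCm38.p6, were 67.9% G or C, against 43.8% for the first 73 nt of Snora34. Whether base composition goes with the size of the step was not tested.

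Neighbouring C/D box genes of a single host could also differ. In Rpl13a, Snord32a stood at -1.74, -1.73 and -2.72 and Snord34 at -3.17, -2.73 and -2.18 in the authors' deposited tables for Puf60 with exon 5, Puf60 without it and Rbm38, so their order turned between Puf60 and Rbm38. The Snord1a, Snord1b and Snord1c copies in Snhg16 stayed between -2.94 and -3.22 for Puf60 and between -2.63 and -2.73 for Rbm38 in the authors' deposited tables, and their reads may be shared.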
